A study of Mus musculus with 5 samples.

Results

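Association neurons and callosal neurons of L2/3 in S1 were compared gene by gene, as the signal on the association L2/3 array minus the signal on the callosal L2/3 array. These are 2 of the 5 arrays of the series, 1 for each group. The groups were named by the submitters: long association neurons were marked by Green RetroBeads injected into M1, and callosal neurons by the same beads injected into S1 of the other hemisphere (cS1). All mice were of the ICR strain. Tracer was given at PD21 and tissue was taken 3 days later, at PD24. All mice had also been electroporated *in utero* with a tdTomato plasmid that reaches L2/3 neurons, per the methods. Labeled cells were cut from S1 by laser microdissection, about 1000 per group, and the RNA was amplified and read on Affymetrix Mouse Gene ST arrays. The other arrays hold association L5, callosal L5, and association L6b neurons, and are used here as points of reference. The labels do not say how many animals gave each group, nor their sex.

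Pyramidal neurons of L2/3 send axons within the cortex. Callosal neurons cross the midline in the corpus callosum to the matching area of the other hemisphere, whereas association neurons of S1 reach motor cortex on the same side and carry touch information to it. Some L2/3 neurons do both, and a single tracer in 1 target marks such cells for that target only, so the groups are defined by a projection that is present and not by one that is absent. Neurons of both kinds are glutamatergic and pyramidal, and they share most of their layer genes.

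Each gene was measured by a probe set, a group of probes on the array, and its level is given as log2 signal minus the median log2 signal of that array, so that 0 is the median probe set. A difference of 1 is 2-fold. Of 19938 genes with a probe set of a single symbol, 11774 were at or above the median of either L2/3 array and were compared. Since each group is a single array, no replicate error could be estimated and no test was run, and the number of arrays limits the precision of every value. A gene is called higher or lower where it was at least 2-fold apart, which is a rule of size.

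The label of the neurons was checked against marker genes. The glutamatergic genes *Slc17a7*, *Camk2a*, *Nrgn*, and *Neurod6* had levels of 1.29 to 5.75 in association L2/3 and 2.58 to 5.41 in callosal L2/3. The upper-layer genes *Calb1* (5.82 and 5.55) and *Lamp5* (5.59 and 5.32) were bright in both arrays, and *Calb1* stood at 2.42 and 3.15 in the L5 arrays and at -1.62 in L6b. *Rasgrf2* was at 2.04 and 1.51, and at -0.48 or lower in the other 3 arrays. The L5 gene *Fezf2* was below the median in both L2/3 arrays and at 1.39 and 2.04 in L5. The L6b gene *Cplx3* was at -0.04 and -0.37 in L2/3 and at 5.22 in L6b. Other deep-layer markers did not separate the layers in this way. *Tbr1* was at 4.24 and 4.36 in L2/3 and at 3.60 in L6b. *Bcl11b* was at 0.72 and 0.43 in L2/3 and at 0.66 and 0.69 in L5, and *Rbp4* at 2.23 and 2.20 in L2/3 and at 3.76 in association L5 and 1.12 in callosal L5. *Etv1*, at 2.75 and 0.31 in L2/3 and 1.65 and 2.19 in L5, is described with the L5 genes.

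Markers of GABAergic interneurons were also present, and all 6 of 6 were above the median in both L2/3 arrays. *Sst* was at 4.23 in association L2/3 and 4.24 in callosal L2/3, and *Slc32a1* at 2.74 and 2.18. Across the 6 genes the median level was 2.46 and 2.10. Of the 4 astrocyte markers, *Slc1a3* was the brightest, at 2.06 and 1.26. The 4 microglial markers lay between 0.08 and 1.36, and the 3 myelin markers between -0.37 and 1.45. The part of such cells in the differences below was not tested.

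Differences of 2-fold or more ran in both directions. Association L2/3 exceeded callosal L2/3 by 2-fold or more in 637 of the 11774 genes (5.41%), and callosal L2/3 exceeded association L2/3 in 436 (3.70%). At 4-fold these counts were 137 and 109, and at 16-fold 10 and 11. The median size among the called genes was 1.39 for higher and 1.43 for lower genes. Over all genes compared the median difference was 0.03 and the SD was 0.632. Deposited values have 2 decimals, and 2038 genes (17.3%) had the same value in both arrays, which the subtraction of the medians (5.71 and 5.74) turns into 0.03. As deposited, 4602 genes were higher and 5134 lower in association L2/3. Among 5 bins of mean level, the share of called genes was 4.56% in the dimmest, 16.6% in the fourth, and 11.5% in the brightest. Dim signals also entered: the lower of the 2 levels was under its array median in 160 of the 637 higher genes (25.1%) and in 102 of the 436 lower genes (23.4%). Among the 10567 genes at or above the median in both arrays, 477 were higher and 334 lower.

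**Figure D1:**
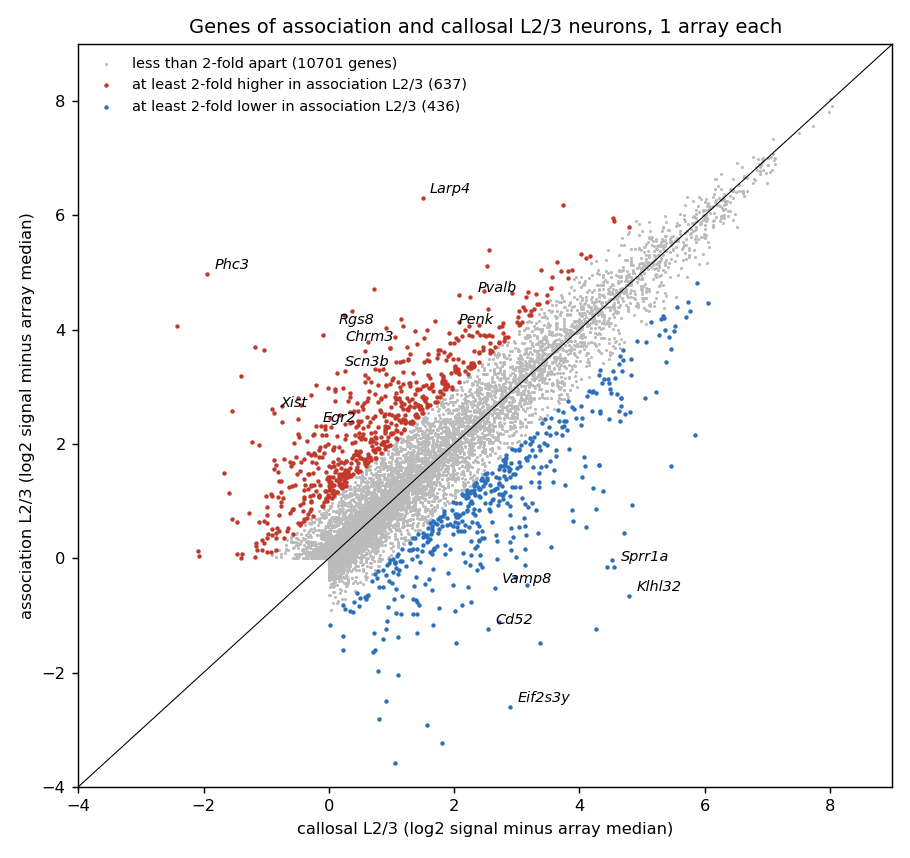
Level of each of the 11774 genes compared in callosal L2/3 (horizontal axis) and association L2/3 (vertical axis), both as log2 signal minus the array median, with 1 array each. Red points are the 637 genes at least 2-fold higher in association L2/3 and blue points the 436 at least 2-fold lower, the black line marks equal levels, and the empty corner at the lower left holds the genes left out as dim in both arrays.

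The other arrays show on which side of a difference the unusual level lay. Of the 637 higher genes, 299 (46.9%) were at least 2-fold brighter in association L2/3 than in any of the remaining 4 arrays. In 53 (8.32%), callosal L2/3 lay 2-fold or more under all 4 remaining arrays, and 2 genes met both conditions. Of the 436 lower genes, 214 (49.1%) were at least 2-fold brighter in callosal L2/3 than in every other array, and 18 (4.13%) were at least 2-fold dimmer in association L2/3 than in every other array. Where 1 array stood apart alone, it was more often the brighter one. The filter favors this outcome, since a gene enters when either L2/3 array reaches its median. So does the choice of the probe set with the highest mean over these arrays. No conclusion is drawn from the imbalance.

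*Xist* and *Eif2s3y* separated the association arrays from the callosal arrays in both layers. *Xist*, a noncoding RNA of X inactivation in female cells, was at 2.55 in association L2/3, -0.88 in callosal L2/3, 1.47 in association L5, -1.48 in callosal L5, and 2.31 in association L6b. All 3 association arrays were above the median and both callosal arrays below it. *Eif2s3y*, a translation factor gene on the Y chromosome, was at -2.61, 2.90, -2.47, 2.45, and -2.46 in the same order. It was bright on both callosal arrays and far below the median on the association arrays. *Uty*, also on the Y chromosome, was under the median in all 5 arrays, at -1.86 in association L2/3 and -0.56 in callosal L2/3. Since the sex of the mice is not in the labels and each group is 1 array, a difference between animals and a difference between projections cannot be told apart for any gene below.

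Among named genes, the highest difference belonged to *Phc3*, which encodes a subunit of Polycomb repressive complex 1, a silencer of developmental genes. Its level was 4.97 in association L2/3 and -1.94 in callosal L2/3, and 3.32, 1.97, and 3.31 in association L5, callosal L5, and association L6b. Callosal L2/3 was the only array under the median. The difference was 6.91, but the second probe set of *Phc3* was at 0.28 and -0.16, a difference of 0.44. *Psmd10*, whose product is a chaperone of proteasome assembly, had the same form: 3.70 in association L2/3, -1.18 in callosal L2/3, and 3.18, 3.30, and 1.41 elsewhere. Here too the callosal L2/3 level stood alone, with a difference of 4.88. *Larp4*, an RNA-binding protein that stabilizes messenger RNA, was at 6.30 and 1.5 in the L2/3 arrays and at 5.11, 2.80, and 4.57 in the others. Both callosal arrays were below all 3 association arrays. The other probe sets of *Larp4* differed by 0.54 and -0.88. By number, the most common chromosome among the neighbors of the probe set used was not that of *Larp4*. Which copy it reads is thus uncertain.

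In several others, association L2/3 stood alone. *Ptpn3*, a tyrosine phosphatase, was at 4.33 in association L2/3 and between 0.25 and 0.37 in the other 4 arrays. Its 12 probe sets disagreed, with differences from -5.72 to 3.96, and their mean was lower in association L2/3 by 0.15. *Gkap1*, which anchors a cGMP-dependent kinase, was at 3.65 against -1.04 in callosal L2/3 and at most 0.26 elsewhere. *Mettl6*, a tRNA methyltransferase, was at 3.79 against 0.62, and at most 1.03 elsewhere. *Eif2ak1*, a kinase that slows translation when heme is short, was at 2.69 against -0.44, and *Zmiz1*, a coactivator of transcription, at 3.63 against 0.58. For *Zmiz1* the other probe sets differed by 0.03 and 0.15. *Cpne6*, a calcium-dependent membrane-binding protein of neurons, was at 3.68 in association L2/3 and between 0.94 and 1.0 in all other arrays. *Pstpip2*, an adaptor of the actin cytoskeleton, was at 1.49 against -1.67.

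*Dennd4a* and *Uxt* had more than 1 probe set with a large difference. *Dennd4a*, an activator of Rab GTPases in membrane traffic, was at 4.72 in association L2/3 and 0.72 in callosal L2/3, and 3 of its other 8 probe sets differed by 4.32, 2.68, and 4.77. Another of its probe sets differed by -1.60. *Uxt*, a prefoldin-like chaperone, was at 3.90 and -0.10, and its second probe set differed by 4.13. In L5 the order was turned, with *Uxt* at -1.18 in association and 3.70 in callosal neurons. The probe sets used for *Uxt* and *Gkap1* are numbered among those of another chromosome, so which copy they read is uncertain.

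On the lower side, callosal L2/3 stood alone in several of the genes farthest apart. *Klhl32*, a Kelch-domain protein, was at -0.66 in association L2/3 and 4.80 in callosal L2/3, and at 0.09, 0.12, and -0.32 in association L5, callosal L5, and association L6b. Only callosal L2/3 was bright, with a difference of -5.46, and the second probe set of *Klhl32* differed by -0.21. *Kif1c*, a kinesin motor, was at -1.24 and 4.26, with a second probe set at -0.77. *Taf1a*, a subunit of the factor that recruits RNA polymerase I, was at -1.49 and 3.37 and at -1.12 or lower elsewhere. *Sprr1a*, a small proline-rich protein known for its induction in neurons with injured axons, was at -0.15 in association L2/3, 4.55 in callosal L2/3, and 0.41 to 0.42 in the other 3 arrays. It had a single probe set and a difference of -4.70. *Bloc1s3*, a subunit of the BLOC-1 complex of organelle biogenesis, was at 0.45 and 4.71 and at most 0.42 elsewhere.

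*Cep43*, a centrosomal protein, was at -0.03 in association L2/3 and 4.52 in callosal L2/3. *Pbrm1*, a subunit of the PBAF chromatin remodeller, was at 1.62 and 5.46, and its other probe sets differed by 0.10 and 0.55. *Marchf11*, a membrane-bound ubiquitin ligase, was at 0.94 and 4.84, with a second probe set that differed by 0.38. *Cd52*, a surface glycoprotein of leukocytes, was at -1.24 and 2.54, and between -0.85 and -0.78 in the other 3 arrays. *Fstl1*, a secreted glycoprotein, was at 0.17 and 3.14. *Gnpnat1*, an enzyme of UDP-GlcNAc synthesis, differed from these: it was at -1.49 in association L2/3, 2.03 in callosal L2/3, and 2.84 to 3.72 elsewhere, so association L2/3 was the array that stood apart. Its second probe set differed by -3.24, and the probe set used is numbered among those of another chromosome. *Lgals1*, a galectin of axons and glia, was likewise low only in association L2/3, at 0.40 against 2.67 and 2.38 to 3.90.

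**Figure D2:**
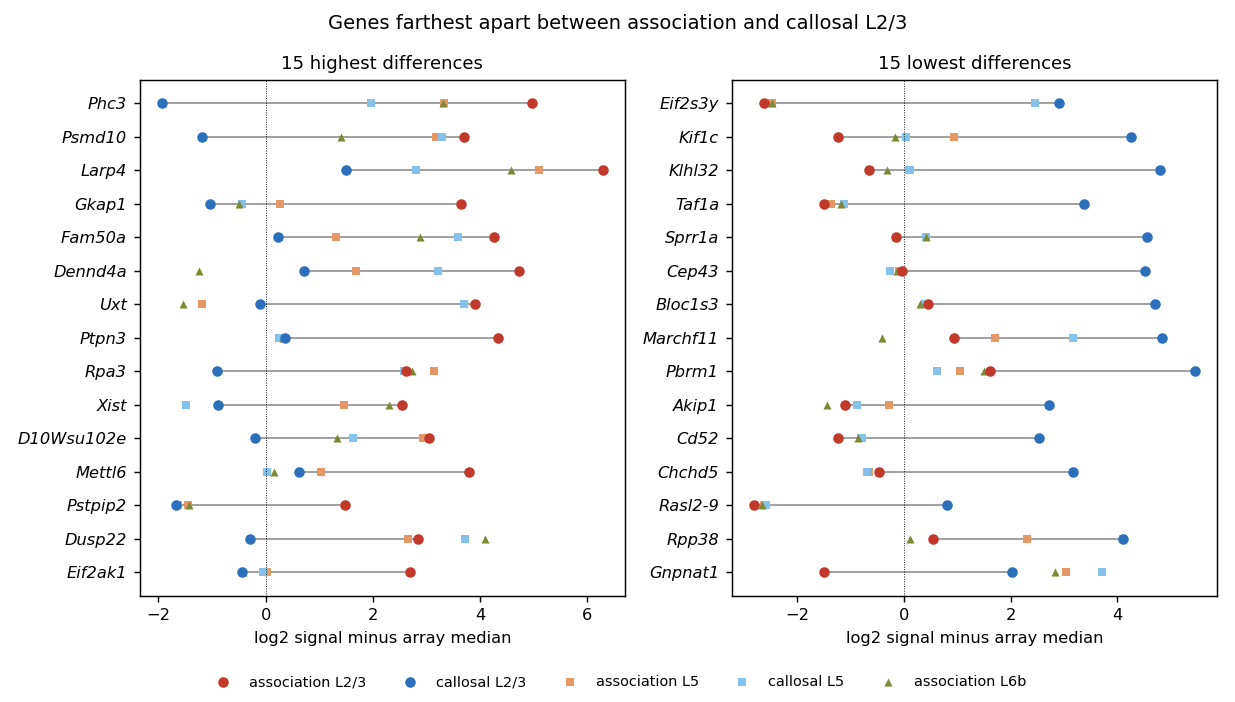
Levels in all 5 arrays (log2 signal minus array median, horizontal axis) of the 15 genes with the highest (left) and the 15 with the lowest (right) association minus callosal difference in L2/3, 1 row per gene. Circles are the L2/3 arrays, joined by a line, squares the L5 arrays, and triangles L6b. *Phc3*, *Psmd10*, and *Rpa3* are low only in callosal L2/3, whereas *Klhl32*, *Taf1a*, *Sprr1a*, and *Cd52* are high only there.

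How far a second probe set repeated a difference was counted over all called genes. Of the genes compared, 92.9% had a single probe set. The higher genes had 94 other probe sets at or above the median, in 57 genes, and 63 of them were also higher in association L2/3 in deposited values, 30 of these 2-fold or more, while 9 were at least 2-fold lower. For the lower genes, 44 of 81 other probe sets, in 51 genes, were also lower, 24 by at least 2-fold, and 8 were at least 2-fold higher. Probe sets numbered among those of another chromosome made up 1.77% of all genes compared, 2.99% of the higher genes, and 3.68% of the lower genes.

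Genes known for L2/3 neurons were more often above than below in association L2/3. Of the 22 compared, 5 passed the fold upward, beside 5.41% of all genes, and 0 downward, beside 3.70%. Their median difference was 0.40, against 0.03 over all genes, and as deposited 18 were higher, 2 equal, and 2 lower. *Rgs8*, a regulator that shortens signaling through Gi and Gq proteins, was at 4.03 in association L2/3 and 0.91 in callosal L2/3, and at 0.41, 0.47, and 0.61 in the other 3 arrays. It was bright in association L2/3 alone, with a difference of 3.12. *Penk*, the precursor of enkephalin, was at 3.95 and 1.92, and at 1.69, 1.72, and 0.08 in association L5, callosal L5, and association L6b. Its callosal L2/3 level was close to that of L5, and its association L2/3 level was above all others by 2.03. *Stard8*, a START-domain protein, was at 2.13 and 0.94, *Ccdc3*, a secreted protein, at 1.07 and -0.15, and *Lhx2*, a transcription factor of upper-layer neurons, at 2.88 and 1.82. In the other 3 arrays *Stard8* was at -0.02 or lower. *Ccdc3* was at 0.98 to 1.27 there, so its callosal L2/3 level was the low one.

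The transcription factors that define the layer differed less. *Cux1* was at 1.87 in association L2/3 and 1.65 in callosal L2/3, *Cux2* at 1.48 and 1.01, and *Pou3f2* at 2.54 and 2.76. *Mef2c*, another transcription factor, was bright in every array, at 5.99 and 5.37 in L2/3, 4.92 and 4.97 in L5, and 4.11 in L6b. The netrin receptor gene *Unc5d* was at 4.03 and 3.15. In the L5 pair the median difference of the same list was -0.03.

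Genes reported for callosal projection neurons lay on both sides. Of 18 compared, 0 were at least 2-fold apart in either direction, beside 9.11% of all genes. A list of 18 would hold few such genes at that share. As deposited, 8 were higher, 2 equal, and 8 lower. The range ran from -0.77 to 0.72. *Gfra2*, a receptor of the neurturin pathway, was at 0.68 in association L2/3 and 1.45 in callosal L2/3, *Hspb3*, a small heat shock protein, at 1.79 and 2.52, and *Dkk3*, a secreted Dickkopf-family protein, at 0.27 and 0.98. In the other direction, *Lmo4*, a LIM-domain regulator of cortical areas, was at 3.97 and 3.25. *Ptn*, a secreted growth factor, was nearly level at 6.42 and 6.44. Genes that pattern cortical areas had a median of 0.18 over 14 genes, none of them 2-fold apart.

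Genes of other layers were mostly level. Of 16 L5 genes, *Etv1* and *S100a10* were higher by the fold and 0 were lower, beside 5.41% and 3.70% of all genes. *Etv1*, a transcription factor, was at 2.75 and 0.31 in the association and callosal L2/3 arrays, 1.65 and 2.19 in the L5 arrays, and 0.35 in L6b, so its association L2/3 level was above those of both L5 arrays. Its second probe set differed by 1.25, and the probe set used is numbered among those of another chromosome. None of the 5 L4, 8 L6a, or 13 L6b genes compared was 2-fold apart. *Kcnab1*, the potassium channel subunit gene for which the screening is known, was near the median in both L2/3 arrays, at 0.07 and -0.44, and at 2.41 in L6b.

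The muscarinic receptor genes *Chrm3* and *Chrm2* were higher in association L2/3, within a list that was balanced. They were named because their sizes ranked 1 and 2 in that list. Other muscarinic receptor genes are not described, so these values do not speak for the family. Of 26 receptors of acetylcholine, monoamines, and peptides, 3 were higher and 0 lower by the fold, beside 5.41% and 3.70% of all genes, with a list median of 0.03 and 10 higher, 4 equal, and 12 lower as deposited. *Chrm3*, the Gq-coupled muscarinic receptor M3, was at 3.70 in association L2/3 and 1.24 in callosal L2/3, and at 0.80, 0.72, and 1.23 in association L5, callosal L5, and association L6b. Association L2/3 stood above all other arrays. *Chrm2*, the Gi-coupled receptor M2, was at 2.17 and -0.23, and at -0.38, 1.91, and -0.20 in the same order. It was bright in association L2/3 and callosal L5 only. *Npy1r*, a receptor of neuropeptide Y, was at 1.24 and 0.20.

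Receptors of inhibitory transmitters followed the same direction in L2/3 and the opposite one in L5. Of 14 genes for GABA receptors, glycine receptors, and their scaffold, 4 passed the fold upward in association L2/3 and 0 downward. The shares of all genes were 5.41% and 3.70%. As deposited, 10 of the 14 were higher, 2 equal, and 2 lower. The median difference was 0.29 in L2/3 and -0.48 in L5, where 0 passed it upward and 4 downward. Over all genes compared, 3.18% passed it upward in L5 and 4.85% downward. *Gabra2*, the alpha 2 subunit of the GABA-A receptor, was at 3.02 in association L2/3 and 0.92 in callosal L2/3, and between 0.48 and 0.92 elsewhere. *Gabrb1*, the beta 1 subunit, was at 2.32 and 0.62 in L2/3, at -0.58 in association L5, 1.82 in callosal L5, and -0.59 in L6b. *Gabrg3*, the gamma 3 subunit, was at 2.39 and 1.29 in L2/3 and at 2.33, 3.89, and 0.75 in the others. Both subunits were thus higher on the association side in L2/3 and on the callosal side in L5. *Glra3*, a glycine receptor subunit, was at 0.13 against -2.09, which is dim on both arrays. The brightest subunits were nearly level: *Gabrb2* was at 5.84 and 5.59, *Gabra4* at 4.06 and 3.87, and the GABA-B subunit *Gabbr1* at 3.02 and 2.99. In L5, *Gabra4* differed by -2.57.

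Interneuron genes were balanced as a list, with 9 higher, 2 equal, and 8 lower as deposited and a median of 0.03. By the fold, 2 of 19 were higher and 0 lower, beside 5.41% and 3.70% of all genes. *Pvalb*, the calcium buffer of fast-spiking interneurons, was at 4.57 and 2.26 in the association and callosal L2/3 arrays, 4.41 and 4.52 in L5, and -1.38 in L6b. The callosal L2/3 level was the one apart from the other L2/3 and L5 arrays. *Gad2*, an enzyme of GABA synthesis, was at 2.18 and 0.54 and between 0.25 and 1.0 elsewhere. *Gad1* was at 1.46 and 1.30, and *Vip* at 1.74 and 2.03. In tissue cut from sections, fewer cells of a type and less RNA per cell cannot be told apart.

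Ion channels set the excitability of a neuron. Of 24 sodium, HCN, and calcium channel genes, 3 were higher and 0 lower by the fold, beside 5.41% and 3.70% of all genes, and 15 were higher, 6 equal, and 3 lower as deposited. *Scn3b*, a beta subunit of sodium channels, was at 3.46 in association L2/3 and 1.18 in callosal L2/3, and at 0.10, 2.57, and 1.83 in association L5, callosal L5, and association L6b. The L5 order was the reverse, with a difference of 2.28 in L2/3 and -2.47 in L5. *Scn8a*, the sodium channel Nav1.6 of the axon initial segment, was at 2.66 and 1.45, and between 0.92 and 1.45 elsewhere. *Cacnb4*, a calcium channel beta subunit, was at 4.45 and 3.35.

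Among 36 voltage-gated potassium channel genes, 4 were higher and 1 was lower, beside the same shares of all genes, with a median of 0.08. *Kcnq3*, a subunit of the M-current that muscarinic receptors close, was at 2.65 in association L2/3 and 1.36 in callosal L2/3, and between 1.25 and 1.44 elsewhere. *Kcnb2*, a delayed rectifier, was at 1.80 and 0.47, *Kcns2*, a silent subunit that joins such channels, at 0.85 and -0.59, and *Kcnip3*, a calcium-binding partner of A-type channels, at 2.13 and 0.73. *Kcnip3* was at 2.5 to 3.69 in the other arrays, so its callosal L2/3 level was the low one. The gene that was lower, *Kcnab3*, encodes a cytoplasmic beta subunit of the family of *Kcnab1*. It was at 0.09 in association L2/3, 2.14 in callosal L2/3, and 0.01 to 0.19 in the other 3 arrays, bright in callosal L2/3 alone. Of 17 inward rectifier, leak (K2P), and SK channel genes, *Kcnj2* (0.53 and -0.65) and *Kcnk9* (2.53 and 1.39) were higher, beside 5.41% of all genes.

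**Figure D3:**
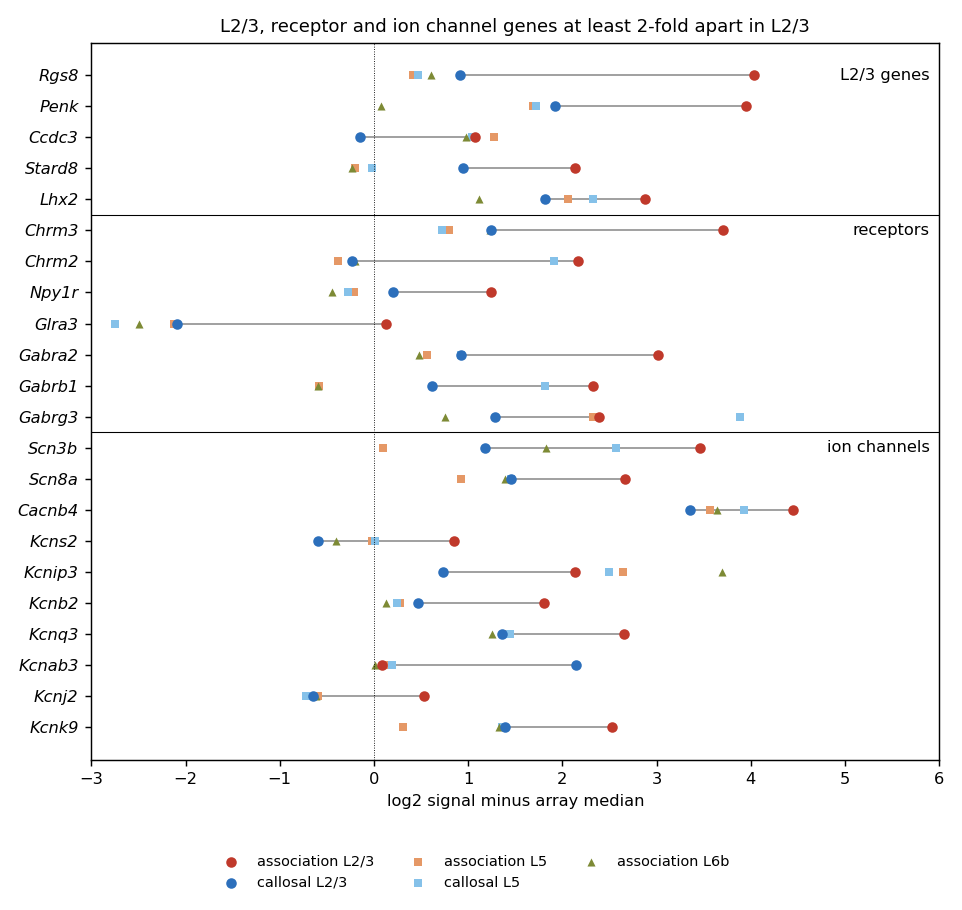
Levels in all 5 arrays (log2 signal minus array median, horizontal axis) of L2/3 genes, receptor genes, and ion channel genes that were at least 2-fold apart in L2/3, 1 row per gene. Red and blue circles are association and callosal L2/3, joined by a line, squares are L5, and triangles are L6b. Association L2/3 is the highest array for *Rgs8*, *Penk*, *Chrm3*, and *Gabra2*, and callosal L2/3 for *Kcnab3*.

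Postsynaptic scaffold genes were shifted as a list by less than 2-fold. Over 25 genes the median was 0.34, and 18 were higher, 2 equal, and 5 lower as deposited. By the fold, 2 were higher and 0 lower, beside 5.41% and 3.70% of all genes. *Dlg4*, the scaffold PSD-95, was at 4.34 in association L2/3 and 3.13 in callosal L2/3, and at 2.87, 2.62, and 3.36 in association L5, callosal L5, and association L6b. Association L2/3 had the highest level. *Camk2d*, a kinase of the CaMKII family, was at 2.03 and 0.87, *Dlg2*, a related scaffold, at 4.75 and 3.87, and *Sipa1l1*, a Rap regulator of spines, at 3.40 and 2.54. In L5 the median of this list was -0.10. Of 18 glutamate receptor genes only *Grm3*, a metabotropic receptor, passed the fold, at 3.69 and 2.65, beside the same shares of all genes. *Gria1*, an AMPA receptor subunit, was at 2.97 and 3.69, and *Grin2b*, an NMDA receptor subunit, at 3.13 and 2.39.

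Among 38 genes of synaptic vesicle release, 4 were higher and 1 was lower, beside 5.41% and 3.70% of all genes, and 23 were higher, 3 equal, and 12 lower as deposited. *Sv2a* and *Sv2c*, which encode vesicle glycoproteins, were at 4.45 and 3.33 and at 1.42 and 0.17. *Syt11*, a synaptotagmin that does not bind calcium, was at 4.91 and 3.82, and *Rab3c*, a vesicle GTPase, at 3.59 and 2.57. In the other 3 arrays *Sv2a* was at 4.30 to 4.76, so its callosal L2/3 level was the low one. *Sv2c* was at 0.16 or lower there, so its association L2/3 level was the high one. *Syt11* was at 4.64 and 4.82 in L5 and at 3.37 in L6b. *Vamp8*, a SNARE of endosomes and exocytic cells, was at -0.52 in association L2/3 and 2.65 in callosal L2/3, and at -0.48, 1.89, and -0.21 in association L5, callosal L5, and association L6b. It was bright on both callosal arrays and dim on all 3 association arrays.

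Of 30 contactin and immunoglobulin-superfamily adhesion genes, 19 were higher, 6 equal, and 5 lower as deposited, with a median of 0.26. By the fold, 2 were higher and 0 lower, beside 5.41% and 3.70% of all genes. Past 2-fold were *Cntnap5b*, a contactin-associated protein (1.10 in association L2/3 and -0.26 in callosal L2/3), and *Ncam2*, a neural adhesion molecule (3.05 and 1.89). *Cntn1*, a contactin of axons, was at 3.48 and 2.55, and *Opcml*, a GPI-anchored adhesion molecule, at 3.49 and 2.62. The L5 median was -0.11. Few guidance genes passed the fold, beside the same shares of all genes. Upward these were 1 of 24 semaphorin, plexin, and neuropilin genes and 1 of 15 Eph and ephrin genes. Of 26 Slit, Robo, netrin, Unc5, Flrt, and Rgm genes, 0 passed it. None of these lists had a gene past it downward. *Plxna4*, a semaphorin receptor, was at 3.61 in association L2/3 and 2.40 in callosal L2/3, and at 2.37, 2.40, and 1.07 in the other arrays. Association L2/3 was again the highest. *Epha6*, an ephrin receptor, was at 2.12 and 0.48 and between -0.45 and 0.67 elsewhere. *Robo3*, which controls midline crossing, was at -0.05 and 0.72, near the median on both arrays. None of 14 classical and type II cadherin and 13 non-clustered protocadherin genes passed the fold, beside the same shares.

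Chromatin regulators past the fold were mostly higher in association L2/3, in small numbers. Of 30 Polycomb and Trithorax genes, 4 were higher and 0 lower by the fold, beside 5.41% and 3.70% of all genes, with a median of 0.12. Besides *Phc3* these were *Kmt2d* (2.82 in association L2/3 and 0.34 in callosal L2/3) and *Kmt2a* (2.66 and 1.15), histone H3 methyltransferases of the Trithorax group, and *Pcgf6* (2.14 and 0.13), of a variant Polycomb complex. In the other 3 arrays *Kmt2a* lay between 1.05 and 1.35, and *Kmt2d* between 0.40 and 1.11. The second probe set of *Kmt2d* differed by 0.03. *Suz12* (1.68 and 2.16) and *Eed* (0.50 and 1.09), of Polycomb complex 2, lay on the other side of 0 by less than 2-fold. Other genes of that complex are not described. Of 37 chromatin remodelling and histone-modifying genes, 6 were higher and 1 lower in L2/3, beside the same shares, whereas 1 was higher and 6 lower in L5, beside 3.18% and 4.85% of all genes. The class II and IV deacetylase genes *Hdac4* (2.56 and 0.83), *Hdac9* (2.23 and 0.90), and *Hdac11* (1.88 and 0.49) were among them. For *Hdac4* the second probe set differed by 0.23. *Crebbp*, a histone acetyltransferase and partner of CREB, was at 3.59 and 2.39 in L2/3 and at 1.14 and 2.58 in the L5 arrays. *Tet2*, a demethylating enzyme, was at 0.62 and -0.99, and *Tet1* at 0.77 and 1.84, with a second probe set of *Tet1* that differed by -0.30.

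Activity-induced genes are transcribed within minutes of strong synaptic input, in part through CREB bound to the cAMP response element. Of 34 compared, *Egr2*, *Dusp1*, and *Jun* were higher by the fold and 0 were lower, beside 5.41% and 3.70% of all genes. The list median was 0.03, with 12 higher, 7 equal, and 15 lower as deposited. *Egr2*, a zinc-finger transcription factor, was at 2.38 in association L2/3, 0.65 in callosal L2/3, and 0.58, 1.05, and 0.13 in association L5, callosal L5, and association L6b. Association L2/3 stood above the rest. *Dusp1*, a MAP kinase phosphatase, was at 1.70 and 0.28, and at 1.73, 1.93, and 1.56 in the other arrays. *Jun*, a subunit of AP-1, was at 1.04 and -0.04, and at 1.19, 1.58, and 1.59. For both genes callosal L2/3 was the low array. The classical members were nearer to level: *Fos* was at 0.33 and 0.38, *Arc* at 1.96 and 2.11, *Npas4* at 0.28 and 0.17, and *Egr1* at 3.58 and 3.12.

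Promoters of *Dusp1* and *Jun*, 2 activity-induced genes low in callosal L2/3, and of *Rgs8*, the L2/3 gene with the highest difference, are shown to place these letters beside the values. Those of *Egr2*, the activity-induced gene with the highest difference, and *Phc3*, the named gene with the highest difference, were searched in the same way and are shown with no match. Each runs from 250 bases before to 50 bases after a gene start of RefSeq in build GRCm38.p6, on the strand of the gene, with matches on either strand to TGACG (the core of the cAMP response element), CCAAT, or TATAAA in capitals. *Dusp1* lies at chr17:26508423-26508722, minus strand. *Jun* lies at chr4:95052173-95052472, minus strand. *Rgs8* lies at chr1:153652787-153653086, plus strand, and is the first of 3 promoters of that gene in the table. *Egr2* lies at chr10:67535249-67535548, plus strand, as the first of 5 promoters, and *Phc3* at chr3:30969366-30969665, minus strand.
Dusp1: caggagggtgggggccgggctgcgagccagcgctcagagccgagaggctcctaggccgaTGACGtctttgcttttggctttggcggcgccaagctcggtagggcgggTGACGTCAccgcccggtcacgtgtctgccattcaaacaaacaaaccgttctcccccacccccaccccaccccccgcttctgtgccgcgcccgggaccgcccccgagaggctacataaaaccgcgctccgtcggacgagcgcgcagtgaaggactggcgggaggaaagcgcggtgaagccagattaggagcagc
Jun: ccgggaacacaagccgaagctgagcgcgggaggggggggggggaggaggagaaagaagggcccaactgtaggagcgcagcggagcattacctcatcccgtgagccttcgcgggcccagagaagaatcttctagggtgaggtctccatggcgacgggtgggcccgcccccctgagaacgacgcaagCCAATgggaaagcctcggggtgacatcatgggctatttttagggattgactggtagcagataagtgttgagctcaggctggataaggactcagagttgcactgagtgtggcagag
Rgs8: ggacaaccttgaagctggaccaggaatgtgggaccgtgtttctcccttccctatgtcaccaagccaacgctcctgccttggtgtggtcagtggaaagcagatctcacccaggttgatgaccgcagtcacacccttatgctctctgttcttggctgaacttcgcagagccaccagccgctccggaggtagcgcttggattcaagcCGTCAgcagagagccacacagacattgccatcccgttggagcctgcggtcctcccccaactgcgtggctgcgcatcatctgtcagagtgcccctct
Egr2: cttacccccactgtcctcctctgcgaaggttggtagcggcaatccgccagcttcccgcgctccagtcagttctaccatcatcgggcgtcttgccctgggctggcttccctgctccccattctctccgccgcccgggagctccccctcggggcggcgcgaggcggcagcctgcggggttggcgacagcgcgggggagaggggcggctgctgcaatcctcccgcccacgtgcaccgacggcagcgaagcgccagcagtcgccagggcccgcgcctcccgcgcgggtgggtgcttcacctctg
Phc3: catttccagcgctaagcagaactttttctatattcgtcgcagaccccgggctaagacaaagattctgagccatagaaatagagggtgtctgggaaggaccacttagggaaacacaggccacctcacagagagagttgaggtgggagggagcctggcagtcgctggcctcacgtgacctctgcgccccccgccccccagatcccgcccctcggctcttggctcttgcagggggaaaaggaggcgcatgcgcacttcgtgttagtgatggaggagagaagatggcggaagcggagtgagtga

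The *Dusp1* promoter holds the full element TGACGTCA, whose first base is at -143, and a further TGACG at -191. The full element reads the same on both strands, so it also holds CGTCA at -140. *Jun* has a CCAAT at -65, and *Rgs8* has CGTCA, the reverse complement of TGACG, at -46. *Egr2* and *Phc3* have none of these letters in the windows shown. Over the 11903 promoters of 9330 compared genes, 29.6% held TGACG on either strand and 2.86% the full element, which contains it. The shares were 32.3% and 3.31% for promoters of higher genes and 33.5% and 4.61% for those of lower genes. The shares in promoters of higher genes, lower genes, and all genes were 6.77%, 5.83%, and 4.97% for the AP-1 motif TGANTCA, 40.5%, 38.3%, and 36.5% for CCAAT, and 7.82%, 7.28%, and 7.35% for TATAAA. A match is a string of letters and was not measured as a bound site.

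Growth factors and their receptors guide the survival and wiring of neurons. Of 30 neurotrophin and growth factor genes, 0 were higher and 3 lower by the fold, beside 5.41% and 3.70% of all genes, with a median of 0.02. *Gfra1*, the GDNF receptor, was at 0.18 in association L2/3 and 2.34 in callosal L2/3, and at 0.71, 1.21, and 0.68 in association L5, callosal L5, and association L6b. Callosal L2/3 was the highest array. *Fgf9*, a fibroblast growth factor of neurons, was at 2.34 and 4.02 in L2/3, at 1.03 and 2.59 in L5, and at 0.44 in L6b, so it was lower on the association side in both layers. *Igfbp2*, a binding protein of insulin-like growth factors, was at 1.25 and 2.92 and at most 1.22 elsewhere. *Wnt4*, a Wnt ligand, was at 1.32 and 2.35, and its second probe set differed by 0.05. Of 23 neuropeptide genes, 2 were higher and 1 was lower, beside the same shares of all genes. *Penk* and *Tac2* (0.74 and -0.26) were higher and *Adcyap1*, the precursor of PACAP, was lower, at 0.14 and 1.66. In the other 3 arrays *Adcyap1* was between -0.04 and 0.22.

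*Neurod6*, a transcription factor of pyramidal neurons, was the only glutamatergic gene of 17 past the fold, beside 9.11% of all genes in either direction. It was at 1.29 in association L2/3, 2.58 in callosal L2/3, and 2.79, 3.42, and 3.08 in the other arrays, which makes association L2/3 the low array. *Slc17a7*, the vesicular glutamate transporter, was at 3.84 and 4.47. *Gnal*, a G protein alpha subunit that raises cAMP, was at 2.30 and 0.04 in L2/3 and at -0.42 and 2.15 in L5.

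Genes of protein synthesis and of respiration were shifted down slightly as lists. Of 52 cytosolic ribosomal protein genes, 38 were lower, 2 equal, and 12 higher in association L2/3 as deposited, and their median was -0.14. Only *Rpl22* passed the fold, at 2.55 and 4.33, beside 9.11% of all genes in either direction. Of 63 nuclear-encoded oxidative phosphorylation genes, 46 were lower, 4 equal, and 13 higher, with a median of -0.19. *Ndufs3* (3.99 and 5.36) and *Ndufb2* (2.92 and 4.22), subunits of complex I, were lower, and *Ndufa10*, another, was higher at 5.04 and 3.89. The L5 medians of these lists were -0.02 and -0.06. Of 36 proteasome and ubiquitin genes, 4 were lower and 1 higher, beside 3.70% and 5.41% of all genes. *Psma5*, a subunit of the proteasome core, was at 2.53 in association L2/3 and 4.73 to 5.42 in all other arrays, and its second probe set differed by -2.27. The probe set used for *Psma5* is numbered among those of another chromosome.

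Genes of other cell types passed the fold in both directions. Of 13 microglial genes, 3 were lower and 1 higher by it, beside 3.70% and 5.41% of all genes. As deposited, 4 were higher, 1 equal, and 8 lower, with a median of -0.09. Lower were *C1qc* (0.75 in association L2/3 and 2.09 in callosal L2/3), *Tyrobp* (2.29 and 3.52), and *P2ry13* (-0.20 and 0.86), and *Laptm5* (1.06 and 0.05) was higher. *Cx3cr1*, a defining microglial receptor, was level at 1.27 and 1.36. Of 18 astrocyte genes, *Atp1b2* (3.24 and 1.34) was higher and *S100b* (1.90 and 3.37) and *Slc4a4* (1.11 and 2.14) were lower, while *Gfap* was below the median in both arrays. Of 16 myelin genes only *Tspan2* passed the fold, at -0.40 and 0.69, and *Mbp* was at 1.39 and 1.45. None of 7 precursor and 10 endothelial and mural genes was 2-fold apart.

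**Figure D4:**
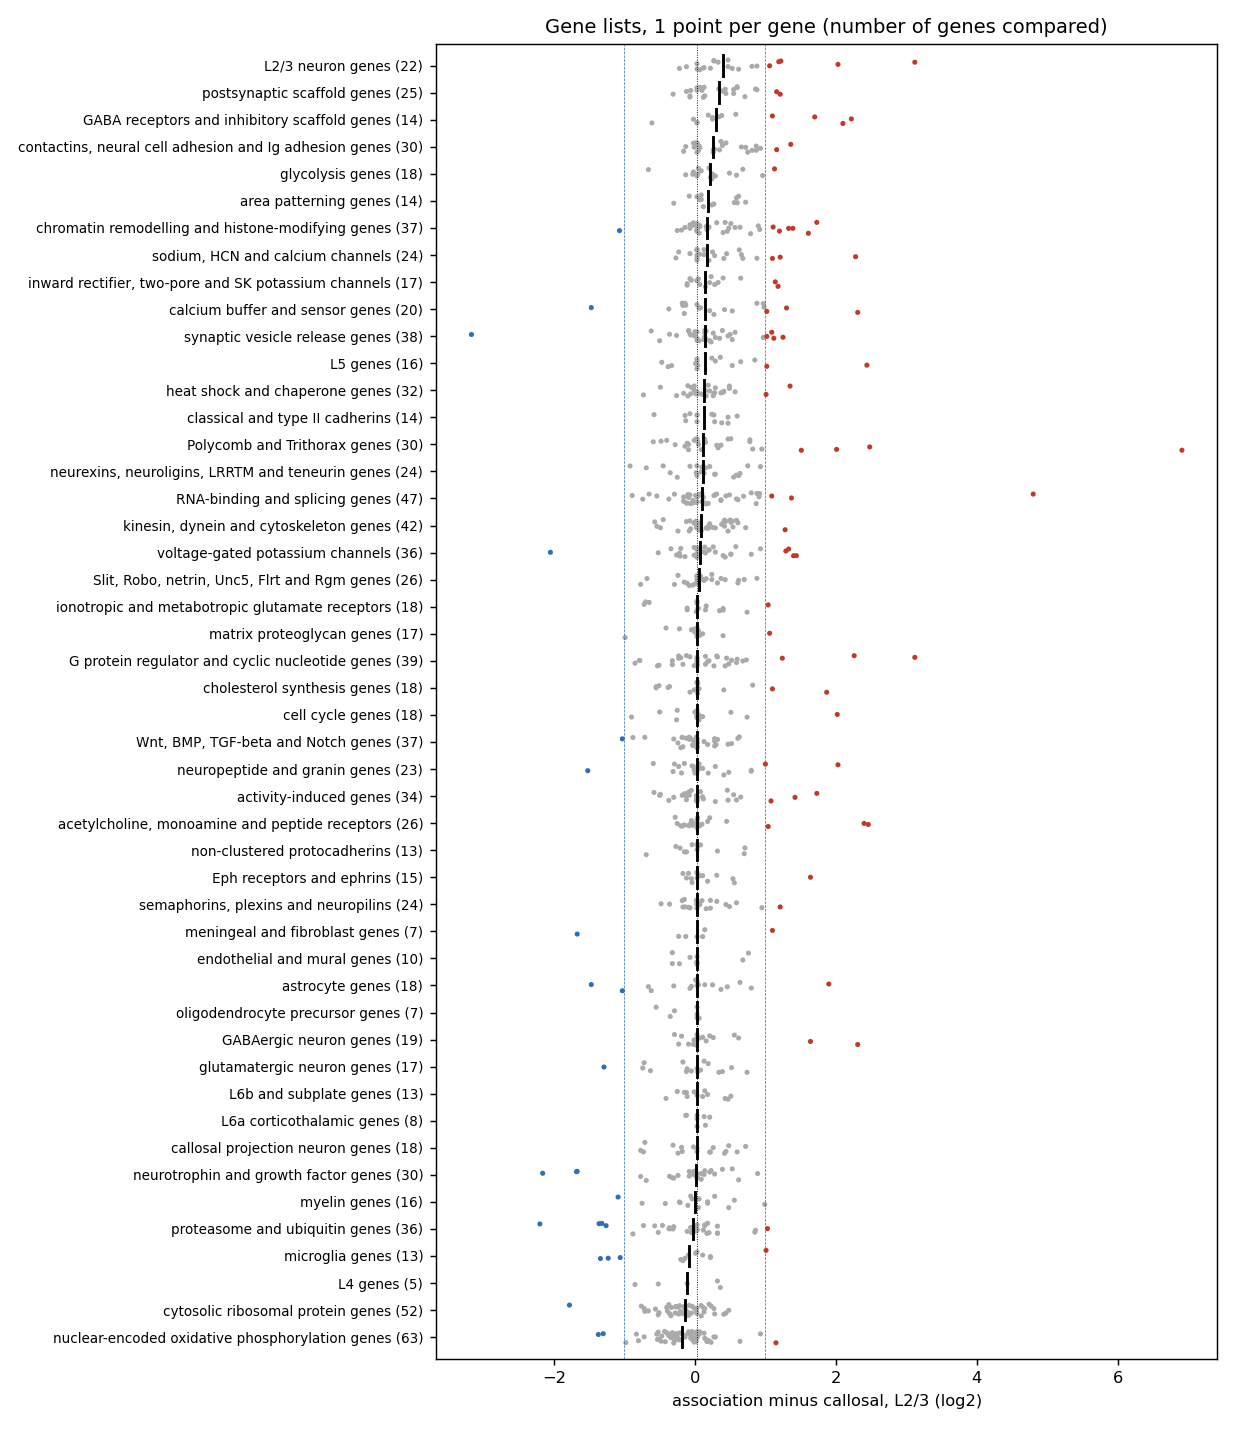
Association minus callosal difference in L2/3 (log2, horizontal axis) of the members of each gene list with at least 5 genes compared, 1 point per gene, with lists ordered by their median (black bar) and the number of genes in parentheses. Red and blue points are at least 2-fold higher and lower, dashed lines mark 2-fold, and the dotted line is the median of all genes. L2/3 neuron genes have the highest median, 0.40, and oxidative phosphorylation genes the lowest, -0.19.

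The L5 pair of arrays shares no array with the L2/3 pair and asks the same question in another layer. Signed differences in the 2 layers were not correlated across genes, with Pearson's r = -0.0155 over 11774 genes. These genes share the array type and amplification and are not independent. Of the 637 genes higher in association L2/3, 46 (7.22%) were also at least 2-fold higher in association L5 and 74 (11.6%) were at least 2-fold lower, beside 3.18% and 4.85% of all genes compared. Of the 436 lower genes, 50 (11.5%) were also lower in L5 and 29 (6.65%) were higher. Both directions in L5 were thus above the shares of all genes, for higher and for lower genes.

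Genes higher on the association side of both layers, besides *Xist* and *Larp4*, included *Atxn1*, a transcriptional regulator. It was at 6.19 in association L2/3, 3.74 in callosal L2/3, 6.21 in association L5, 4.15 in callosal L5, and 6.45 in L6b. All 3 association arrays lay within 0.26 of each other and above both callosal arrays. The second probe set of *Atxn1*, at 1.46 and 1.74 in L2/3, differed by -0.28. *Ssbp2*, a single-stranded DNA-binding cofactor of LIM factors, differed by 2.30 in L2/3 and 1.76 in L5, *Rrm2b*, a subunit of ribonucleotide reductase, by 2.15 and 2.19, and *Cthrc1*, a secreted collagen repeat protein, by 2.67 and 1.95. *Necab1*, a calcium-binding protein, was at 3.10 and 1.80 in L2/3 and at 2.75 and 0.54 in L5. On the lower side in both layers, besides *Eif2s3y*, *Vamp8*, and *Fgf9*, were *Fundc1*, a receptor of mitophagy (-2.40 in L2/3 and -2.73 in L5), *Prrg3*, a membrane protein (-2.24 and -2.87), *Pcdhb17*, a clustered protocadherin (-2.5 and -1.83), and *Slc9a7*, a proton exchanger of the Golgi (-1.77 and -1.80).

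In the opposite pattern, higher on the association side of L2/3 and on the callosal side of L5, were *Uxt*, *Chrm2*, *Scn3b*, *Gabrb1*, and *Gnal* as given above. *Triap1*, an inhibitor of apoptosis, was at 2.93 and 0.10 in L2/3 and at -0.15 and 2.62 in L5, and *Sar1a*, a GTPase of the secretory pathway, at 4.16 and 1.69 in L2/3 and at 1.44 and 4.53 in L5. The reverse held for *Zswim7*, at -0.02 and 2.68 in L2/3 and 3.87 and 0.40 in L5, for *Dennd5b*, a Rab activator, at 1.71 and 3.53 in L2/3 and 4.11 and 0.10 in L5, though its second probe set differed by 0.69 in L2/3, and for *Seh1l*, a nucleoporin, at 0.57 and 2.39 in L2/3 and 2.92 and 0.91 in L5. The differences between layers have no test, since each is 1 array against 1 array.

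**Figure D5:**
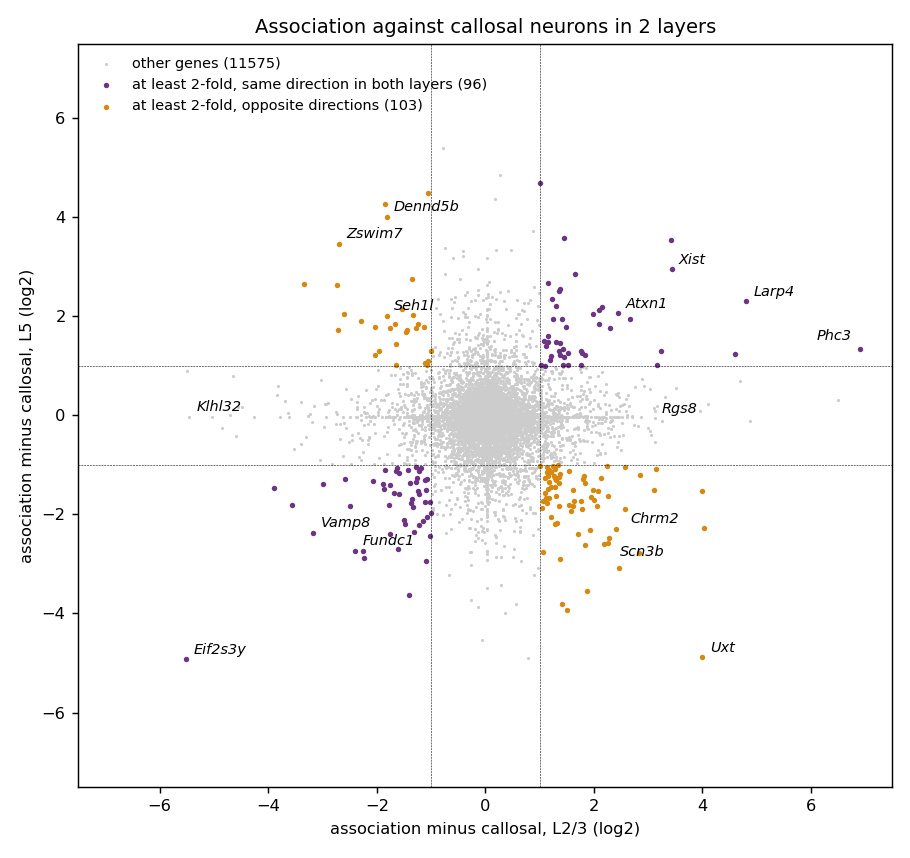
Association minus callosal difference (log2) in L2/3 (horizontal axis) and in L5 (vertical axis) for the 11774 genes compared in L2/3, with dashed lines at 2-fold. Purple points are the 96 genes at least 2-fold apart in the same direction in both layers and orange points the 103 in opposite directions. *Eif2s3y*, *Larp4*, and *Xist* lie far out on the same-direction side and *Uxt* on the opposite side.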

How the data were processed

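The 5 arrays were GeneChip Mouse Gene 1.0 ST. Log2 signals of the probe sets were deposited by the authors in 1 table, with 2 decimals. Per the labels the tool was Affymetrix Expression Console, and the methods name log transformation, a global normalization, and centering of the raw signals. The probe set summarisation and the kind of global normalization are not stated there, and the deposited log2 values are not centered per gene. The scale was taken from the values, which range from 1.28 to 14.2 in the L2/3 arrays. Of 35556 probe sets, GEO's annotation gives 21789 a single symbol, 1621 several, and 12146 are unnamed here. Of those with a single symbol, 21698 were matched by Entrez identifier and 0 symbols changed.

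Each array's median over all probe sets was subtracted, the probe set with the highest mean over the L2/3 arrays stood for a gene, and genes at or above the array median in either L2/3 array were compared. A gene was called at a difference of at least 1 log2. With 1 array per group no test was run. For probe sets of matched genes, the 10 probe sets on each side by number gave the chromosome of their neighbors. Promoters came from RefSeq. The 51 gene lists, the comparison, and the genes to name were chosen with earlier results of these data known. Named genes were the 15 highest and lowest, without predicted genes, receptor families, small RNAs, and pseudogenes, the 15 at each end among genes bright in both arrays, the 4 largest of each list, genes of the paper, the genes farthest apart in both layers, and those in which 1 L2/3 array stood farthest from the rest. The others named, such as *Lhx2*, *Kcnq3*, *Crebbp*, *Rab3c*, *Suz12*, level list members, and second probe sets, were picked after their values were seen. The steps were tested on simulated data. Python 3.11.15, pandas 2.3.3, numpy 2.4.6, and matplotlib 3.10.9 were used. Alternatives were other scalings, filters, and the mean of a gene's probe sets.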

Additional observations from a re-analysis of the deposited data

Results flagged for a closer look

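Among the named genes, 23 were at least 2-fold apart in opposite directions in L2/3 and L5. The difference between the layers was not tested, since each side of each comparison is 1 array. Values are association minus callosal, in log2, with L2/3 first. Higher in L2/3 and lower in L5 were the receptor and channel genes *Chrm2* (2.40 and -2.29), *Gabrb1* (1.70 and -2.40), *Gabrg3* (1.10 and -1.56), *Scn3b* (2.28 and -2.47), and *Kcnk9* (1.14 and -1.05), and the G protein gene *Gnal* (2.26 and -2.57). The same held for *Uxt* (4.0 and -4.88), *Fam50a* (4.02 and -2.27), *Dennd4a* (4.0 and -1.53), *Dusp22* (3.14 and -1.08), *Pqbp1* (2.84 and -1.20), *Triap1* (2.83 and -2.77), and *Sar1a* (2.47 and -3.09). Smaller sizes were seen for *Tet2* (1.61 and -1.82), *Dnajb4* (1.35 and -1.83), and *Fdft1* (1.10 and -1.27). Lower in L2/3 and higher in L5 were *Zfp882* (-2.73 and 2.63), *Zswim7* (-2.70 and 3.47), *Nudt1* (-2.61 and 2.05), *Fam135b* (-2.04 and 1.79), *Dennd5b* (-1.82 and 4.01), *Seh1l* (-1.82 and 2.01), and *Ube2d1* (-1.36 and 2.75). The second probe set of *Dennd5b* differed by 0.69 in L2/3, and the others of *Fam135b* by 0.63, -0.26, and -2.83. Groups of 1 array allow no search for samples far from their group.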

How the results depend on the processing

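The 637 higher genes became 588 to 661 under other scalings, without the filter, and with the mean of a gene's probe sets, 545 with the 75th percentile as the filter, and 477 where both arrays had to reach the median. The 436 lower genes became 334 to 471. Each count stayed within 1.5 times its value, and so did the 4 counts over both layers, whose alternatives were chosen after the values were seen. With values as deposited, 610 of the 637 higher and all 436 lower genes kept their call. Quantile normalization kept 586 and 434. With the mean of the probe sets, *Ptpn3* changed to -0.15 and *Galntl6*, 1.44 before, to -0.11. Of 265 named genes, 4 lost their 2-fold size with values as deposited, 4 after quantile normalization, and 5 with the mean of the probe sets, among them *Dennd5b* at -0.56 and *Fam135b* at -0.92. Under all 3 other scalings every list median stayed within 0.1, and those of the L2/3, inhibitory receptor, postsynaptic, adhesion, ribosomal, and oxidative phosphorylation lists kept their sign. With the 75th percentile as the filter, 19 list medians moved by 0.1 or more. No paired analysis was possible because each group is 1 array. Signal over background limits the sizes in which 1 level is below the array median, and no detection values were used here.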

Other observations

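Other gene groups had few members past 2-fold, beside 5.41% higher and 3.70% lower among all genes in L2/3. Of 32 heat shock and chaperone genes, *Dnajb4* (3.37 in association L2/3 and 2.02 in callosal L2/3) and *Dnajb5* (3.23 and 2.22), both partners of HSP70, were higher, and the list median was 0.14 in L2/3 and -0.18 in L5. Of 18 cholesterol synthesis genes, *Nsdhl* (1.67 and -0.20) and *Fdft1* (3.27 and 2.17) were higher in L2/3, beside 5.41% of all genes, while 5 of the 18 were at least 2-fold lower in association L5, beside 4.85% of all genes. Glycolysis genes had a median of 0.21 over 18 genes, and only *Slc16a7*, a monocarboxylate transporter, passed the fold, at 2.51 and 1.38. Of 42 kinesin, dynein, and cytoskeleton genes 1 was higher, the neurofilament gene *Nefh* at 1.97 and 0.69, and 0 were lower. Among matrix genes, *Ncan*, a proteoglycan of perineuronal nets, was at 2.26 and 1.20. *Cdk4*, a cell cycle kinase, was at 2.00 in association L2/3 and -0.02 in callosal L2/3, and between 0.78 and 0.84 in the other 3 arrays.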
